A study of Bos taurus with 42 samples.

Results

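*FOXA3*, *PPARA*, *SREBF2*, *PFKFB1* and *MIOX* are regulators and enzymes of liver metabolism, and they were followed as a group of 5 genes of the 22664 genes in the count table. The members were found through the Ensembl gene IDs that the supplementary tables of the study pair with these symbols: ENSBTAG00000012104 for *FOXA3*, ENSBTAG00000008063 for *PPARA*, ENSBTAG00000014265 for *SREBF2*, ENSBTAG00000000172 for *PFKFB1* and ENSBTAG00000002559 for *MIOX*. The libraries came from the liver, cerebrum and left hind limb (labelled muscle) of 14 fetuses at day 50 of gestation, carried by crossbred Angus heifers that were inseminated from the same bull and put on their diets straight after breeding. The control group (CON) had 7 fetuses, 6 male and 1 female, from heifers fed 100% of their requirement, and the restricted group (RES) had 7, 5 male and 2 female, from heifers fed 60% of the CON intake. All 42 libraries are bulk RNA of whole tissue pieces, so that fewer cells of a type and less RNA per cell cannot be told apart. Total counts ran from 6658218 to 12741299 in the liver, from 4145093 to 7576159 in the cerebrum and from 5384018 to 7592149 in muscle.

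*FOXA3* belongs to the forkhead box A family of transcription factors, which open chromatin at liver genes and act beside factors such as *HNF4A*. *PPARA* is a nuclear receptor that binds fatty acids, pairs with a retinoid X receptor and switches on fatty acid oxidation and ketogenesis in fasting. *SREBF2* is a membrane-bound transcription factor that is held in the endoplasmic reticulum by *INSIG* proteins when sterols are plentiful, and is otherwise cleaved to turn on cholesterol synthesis. *PFKFB1* encodes the liver form of the enzyme that makes and breaks down fructose 2,6-bisphosphate, the signal that sets glycolysis against gluconeogenesis. *MIOX* encodes myo-inositol oxygenase, the first enzyme of inositol breakdown to glucuronate, best known from the kidney.

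The liver label was borne out by the hepatocyte markers. Albumin (*ALB*) had a median of 23410 CPM (counts scaled to a library of fixed size) over the 14 liver libraries, with a lowest library of 9561, and alpha-fetoprotein (*AFP*), the fetal counterpart of albumin, had a median of 47602 CPM. The cerebrum had a median of 4.45 CPM of *ALB* and muscle 3.74 CPM. *PAX2*, the one kidney marker with a symbol, was at 0 in all 14 liver libraries, and so was the myogenic factor *MYOD1*. The other skeletal muscle markers were at 0 in fewer liver libraries: *CKM* in 12, *MYOG* in 11, *MYF5* in 8, *TNNT2* in 3, and *MYH3* and *ACTC1* in 0. *MYH3* had a median of 8.44 CPM in the liver and reached 21.4 CPM. The CPM of single markers and their sums, like all levels set side by side across tissues, are scaled with trimmed mean of M values (TMM) factors over the 42 libraries. The CPM values in the diet comparisons, marker means included, are scaled with TMM factors computed within the tissue.

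The liver libraries differed widely in the share of counts taken by 12 protein-coding genes of the mitochondrial genome, and this share is set beside the results below. It ran from 4.04% to 44.9% in CON and from 4.34% to 67.7% in RES. The 4 libraries over 30% were RES fetus 1 with 67.7%, CON fetus 2 with 44.9%, RES fetus 6 with 35.6% and RES fetus 33 with 30.5%. Its median was 12.6% in RES and 5.84% in CON. Its mean was 24.7% ± 22.1 in RES against 12.6% ± 14.9 in CON (SD, *n* = 7 each), and the difference did not pass an exact permutation test over all splits of the 14 fetuses (two-sided *p* = 0.280, adjusted *p* = 0.566 over 8 measures). The test used the raw percentage, not its log2, and had no sex term. The difference in means, 12.1 percentage points, was 4.94 without RES fetus 1 and 17.5 without CON fetus 2. The total count rose with it, with a Pearson *r* of 0.94 between the total count and log2 of the share.

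One cerebrum library also stood apart. RES fetus 1 had a summed 6132 CPM over 7 hepatocyte markers in the cerebrum, against a median of 161 CPM over the 14 cerebrum libraries. Transthyretin (*TTR*), which the choroid plexus of the brain also makes, took 5627 CPM of this sum. Over the 6 other markers RES fetus 1 had 505 CPM and RES fetus 33 had 291 CPM, against a median of 10.6 CPM. RES fetus 25 had 82.4 CPM and CON fetus 2 had 81.9 CPM. The mean log2 CPM of the 7 markers put these libraries in the same order (6.69, 5.12, 4.31 and 3.17, median 1.54), so that RES fetus 1 was highest by each measure. It also had the highest sums of erythroid markers (273 CPM, median 10.3) and of skeletal muscle markers (197 CPM, median 4.05).

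In muscle, the libraries of CON fetus 73 and RES fetus 1 stood apart in 6 neuron markers, with a sum of 1496 and 344 CPM, against 14.6 to 59.5 CPM in the other 12 muscle libraries. The muscle library of RES fetus 70 had the highest sum of hepatocyte markers there, 142 CPM against a median of 18.6.

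*FOXA3*, *PFKFB1* and *MIOX* were expressed in the liver and were near 0 elsewhere. The study lists these 3 genes as liver-specific on the basis of these same libraries, so their tissue pattern is a description with no test. *FOXA3* had from 138 to 600 counts in the liver libraries (median 398.5), from 0 to 3 in the cerebrum and from 0 to 7 in muscle. *PFKFB1* had from 290 to 1208 counts in the liver (median 689.5), from 0 to 2 in the cerebrum and from 0 to 5 in muscle. *MIOX* had from 718 to 1955 counts in the liver (median 991), from 0 to 6 in the cerebrum and from 0 to 9 in muscle. The lowest liver library was thus above the highest library of the other tissues for each of the 3 genes. On the CPM scale, 13.6% of the 15972 genes tested over all tissues were separated in this way, and nothing is read from this count, since these libraries were used to list the 3 genes.

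Pooled over libraries and divided by TMM-scaled library sizes, *MIOX* was 1988-fold higher in the liver than in the cerebrum, where 10 reads were counted in all (95% interval 1081 to 4147, exact, counting error only). The ratio to the cerebrum was 1084 (526.0 to 2699) for *FOXA3* and 1646 (835 to 3814) for *PFKFB1*. Against muscle the ratio was 169 (130 to 225) for *FOXA3*, 622 (424 to 952) for *PFKFB1* and 444 (341 to 589) for *MIOX*. The scale sets the size of these ratios: with total counts and no TMM factors, they were 506 for *FOXA3*, 767 for *PFKFB1* and 927 for *MIOX* against the cerebrum, and 78.8, 289 and 206 against muscle. The few cerebrum reads were not spread evenly. RES fetus 1, the deepest cerebrum library with 7576159 counts and the one with the highest hepatocyte marker levels, had the highest count of *FOXA3* (3 reads) and of *MIOX* (6 reads), and it shared the highest count of *PFKFB1* (2 reads) with RES fetus 25. Without this library, 4 reads of *MIOX* were left in the cerebrum and the ratio was 4559 (1780 to 16736), while it was 1741 (680 to 6391) for *FOXA3* and 2013 (925 to 5487) for *PFKFB1*. RES fetus 33, next highest over the hepatocyte markers other than *TTR*, had 1 cerebrum read of each of these genes and was kept. Leaving out RES fetus 1 was added after the values had been seen, and the part of other cells in the cerebrum reads was not tested.

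*PPARA* was highest in the liver, intermediate in muscle and lowest in the cerebrum. With TMM factors over all 42 libraries, its level ran from 7.62 to 19.6 CPM in the liver (median 11.2), from 3.05 to 6.79 CPM in muscle (median 4.54) and from 0.484 to 2.40 CPM in the cerebrum (median 1.19). The 3 tissues did not overlap. In a fit that took the libraries of a fetus as independent, the liver was 9.07-fold above the cerebrum (log2 difference 3.18 ± 0.21 SE, edgeR quasi-likelihood test, adjusted *p* = 4.44e-18). In the same fit the liver was 2.64-fold above muscle (1.40 ± 0.18 SE, adjusted *p* = 5.27e-09). Such differences were common, since 38.5% of the 15972 genes tested were called higher in the liver than in the cerebrum and 36.6% higher than in muscle. The size was less common: the mean log2 difference of *PPARA* was above that of 91.0% of the genes against the cerebrum and of 82.7% against muscle. Both differences depended on the scaling. With CPM of the total count and no TMM factors, the difference from the cerebrum was 2.14 on the log2 scale (adjusted *p* = 2.53e-10, edgeR). The difference from muscle was 0.37 on the log2 scale with an adjusted *p* of 0.128, while the median of all genes moved from -0.26 to -1.27 and *PPARA* stood above 82.6% of them.

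*SREBF2* was expressed in all 3 tissues. With the same TMM factors its level ran from 187 to 285 CPM in the liver (median 223), from 157 to 373 CPM in the cerebrum (median 197) and from 162 to 254 CPM in muscle (median 193), and all 3 ranges overlapped. The liver differed from the cerebrum by 0.08 ± 0.10 (log2, SE; 95% interval -0.13 to 0.29; adjusted *p* = 0.473, edgeR) and from muscle by 0.21 ± 0.10 (0.01 to 0.42; adjusted *p* = 0.0540). With the animal as a block, since the 3 libraries of a fetus share its number, the difference from muscle was 0.22 with an adjusted *p* of 0.0457. Without the muscle libraries of CON fetus 73 and RES fetus 1, left out after the values had been seen, it was 0.26 ± 0.11 (SE) with an adjusted *p* of 0.0265. The direction turned when no TMM factors were used, to -1.003 against the cerebrum and -0.84 against muscle, both lower in the liver (adjusted *p* = 2.87e-07 and 7.08e-06). On that scale the median of all genes stood at -1.19 and -1.27. Relative to other genes, its difference lay above 56.0% of them against the cerebrum with TMM factors and 54.2% without, and above 61.3% and 59.0% against muscle.

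**Figure D1:**
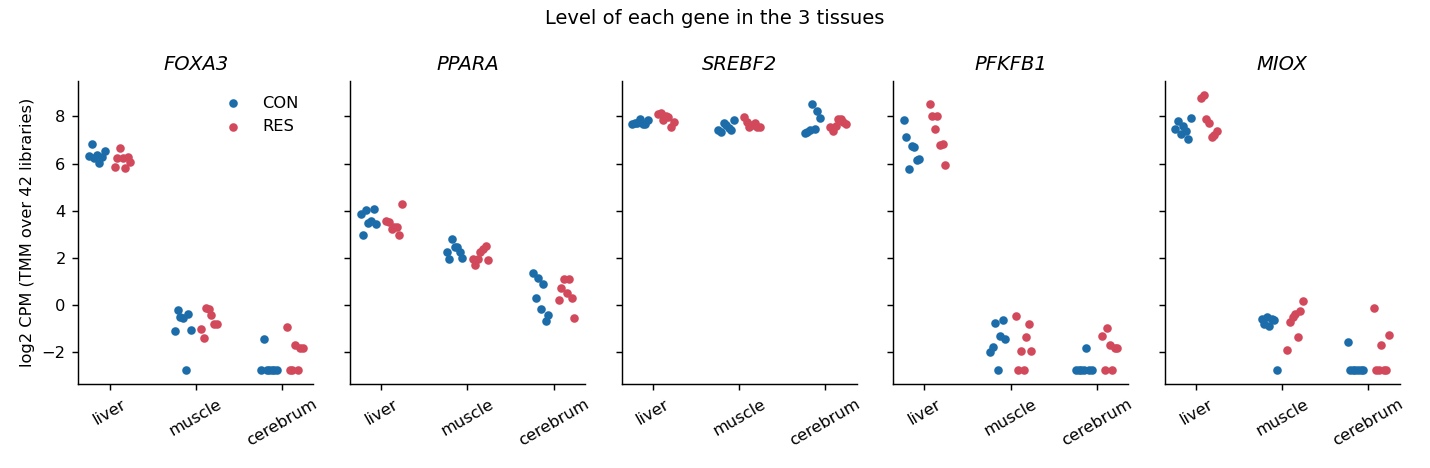
Level of the 5 genes in the liver, muscle and cerebrum of each fetus, as log2 CPM with TMM factors over 42 libraries and a prior count of 1; each point is 1 library, blue for CON and red for RES, and the lowest row of points marks counts of 0. *FOXA3*, *PFKFB1* and *MIOX* stand far above the other tissues in the liver, *PPARA* falls in 3 steps, and *SREBF2* overlaps across tissues. Without TMM factors *SREBF2* is lower in the liver, and the step of *PPARA* between liver and muscle does not pass adjustment.

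The next comparison asks whether these genes differed in the fetal liver with maternal intake. No gene of the 13527 tested in the liver passed an adjusted *p* of 0.05 (0%; edgeR quasi-likelihood test with sex as covariate and Benjamini-Hochberg adjustment; lowest adjusted *p* = 0.184), and DESeq2 called 78, none of them among the 5 members. At an unadjusted *p* of 0.05, 24.1% of the liver genes were called. Those higher in RES made up 13.5% of all genes tested and those lower 10.6%. One member was among them, *PFKFB1*, though not under every setting. *SREBF2* (DESeq2 Wald test, unadjusted *p* = 0.0274) and *MIOX* (edgeR in male fetuses only, unadjusted *p* = 0.0375) also came under this limit in other settings. Without the sex covariate, 1348 liver genes came under the limit, and 1024 of them were higher in RES.

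*FOXA3* ran from 40.4 to 66.9 CPM in the CON livers (median 47.8) and from 34.5 to 58.4 CPM in the RES livers (median 43.1). The ranges overlapped over most of their length, with 1 of 7 RES fetuses above the CON median. The log2 difference, RES minus CON, was -0.20 ± 0.15 (SE; adjusted *p* = 0.362, edgeR), with a 95% interval of -0.52 to 0.11.

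*PPARA* had 28 to 110 reads in a liver library, so its values carry more counting error than those of the other members. It ran from 4.46 to 10.1 CPM in CON (median 7.26) and from 4.57 to 12.3 CPM in RES (median 6.06). The highest liver of all was RES fetus 70, and the other 6 RES livers lay at or below 6.99 CPM, inside the CON range. The log2 difference was -0.22 ± 0.25 (SE; 95% interval -0.75 to 0.31; adjusted *p* = 0.552, edgeR).

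*SREBF2* was the steadiest member within CON, where it ran from 122 to 140 CPM (median 125). In RES it ran from 110 to 166 CPM (median 151), with 4 fetuses above every CON liver and 1 below every CON liver. The log2 difference was 0.20 ± 0.11 (SE; 95% interval -0.03 to 0.43; unadjusted *p* = 0.0863, adjusted *p* = 0.249, edgeR).

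*PFKFB1* had the widest spread between fetuses. It ran from 33.05 to 136 CPM in CON (median 63.0) and from 38.3 to 222 CPM in RES (median 103), and 6 of 7 RES fetuses were above the CON median. The groups overlapped, since CON fetus 2 with 136 CPM exceeded 4 of the RES livers. RES was 1.71-fold higher (log2 difference 0.77 ± 0.34 SE, 95% interval 0.06 to 1.49, unadjusted *p* = 0.0364, adjusted *p* = 0.193, edgeR), which did not pass the adjusted threshold. The unadjusted *p* of edgeR was 0.0523 without the sex covariate, and it ran from 0.00768 to 0.109 with each fetus left out in turn, above 0.05 in 7 of 14 cases. An exact permutation test of the group means of log2 CPM, with no sex term, gave a two-sided *p* of 0.112.

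*MIOX* ran from 79.5 to 147 CPM in CON (median 105) and from 86.8 to 281 CPM in RES (median 121). RES fetus 6 at 281 CPM and RES fetus 1 at 263 CPM stood above all CON livers, while the other 5 RES livers lay inside the CON range. The log2 difference was 0.51 ± 0.25 (SE; 95% interval -0.03 to 1.05; adjusted *p* = 0.219, edgeR). Without the 4 livers with a mitochondrial share over 30%, which include these 2, it was -0.045 ± 0.20 (SE). For the other members, *PFKFB1* and *SREBF2* included, the group means of log2 CPM lay closer together without these livers, in an unchanged direction. These means have no sex term and are not the same measure as the edgeR estimates.

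**Figure D2:**
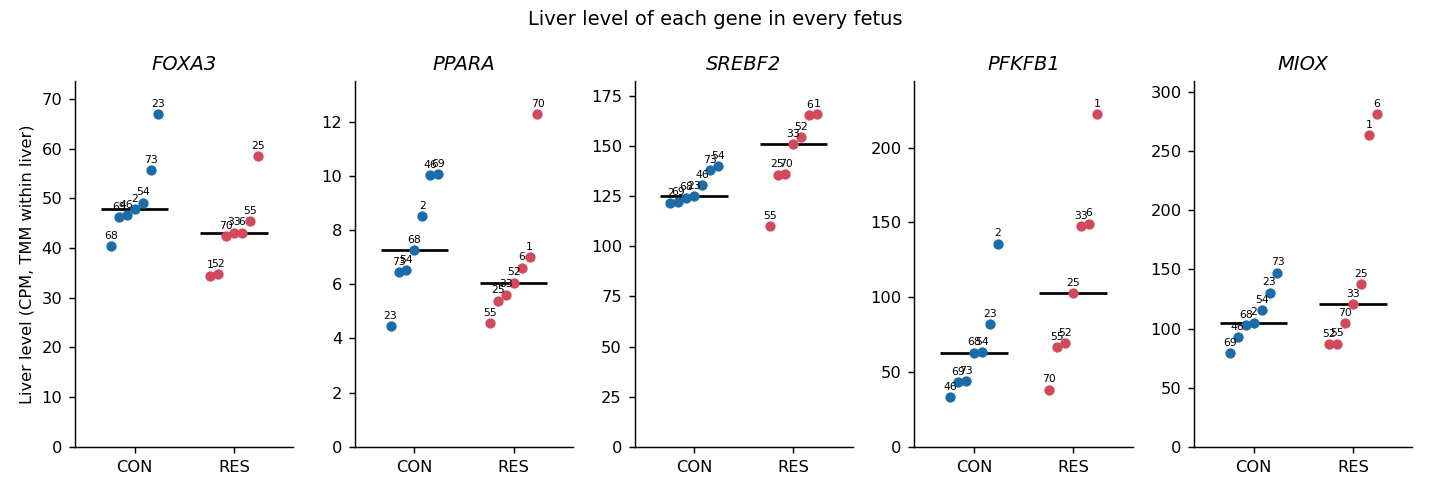
Liver level of each member in every fetus, in CPM with TMM factors within the liver; points are fetuses with their numbers, blue for CON and red for RES, and the bar is the median of 7. The groups overlap for all 5 genes, and RES fetuses 1 and 6 have the 2 highest values of *SREBF2*, *PFKFB1* and *MIOX*.

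The level of *PFKFB1* in the liver followed the mitochondrial share of the library. Over the 14 fetuses, log2 CPM of *PFKFB1* against log2 of the share gave a Pearson *r* of 0.97 and a Spearman rho of 0.95 (permutation test, 100000 resamples, two-sided, *p* = 1e-05 for both, the smallest it can give, adjusted *p* = 5e-05 over 5 genes). The *r* was 0.96 within CON and 0.97 within RES, 0.96 without the 2 fetuses of the highest share, and 0.97 when the mitochondrial genes were taken out of the counts and library sizes. The 4 libraries with the highest share were also the 4 with the highest *PFKFB1*: 222 CPM in RES fetus 1, 149 in RES fetus 6, 147 in RES fetus 33 and 136 in CON fetus 2. Both measures come from the same library, and the relation was widespread: 37.2% of the 13515 liver genes outside the mitochondrial genome had an absolute *r* of 0.8 or more with the share, and 1.06% had an *r* above that of *PFKFB1*.

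*MIOX* was related to the share less closely, with an *r* of 0.62 (permutation *p* = 0.0164, adjusted *p* = 0.0409) and a rho of 0.53 (permutation *p* = 0.0539, adjusted *p* = 0.135). It was 0.18 within CON and 0.78 within RES, and without RES fetus 1 it was 0.46 with an adjusted *p* of 0.198. Leaving out any one of 9 fetuses, 5 of them in CON, took its adjusted *p* over 0.05. *SREBF2* had an *r* of 0.42 (permutation *p* = 0.133, rho 0.27, *p* = 0.348), *PPARA* of -0.38 (*p* = 0.177, rho -0.38, *p* = 0.176) and *FOXA3* of -0.20 (*p* = 0.489, rho -0.16, *p* = 0.571), and none of these passed adjustment. For *PPARA* the *r* was -0.66 (permutation *p* = 0.0198) without CON fetus 2 and RES fetus 1, which lie at the far end of the share.

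**Figure D3:**
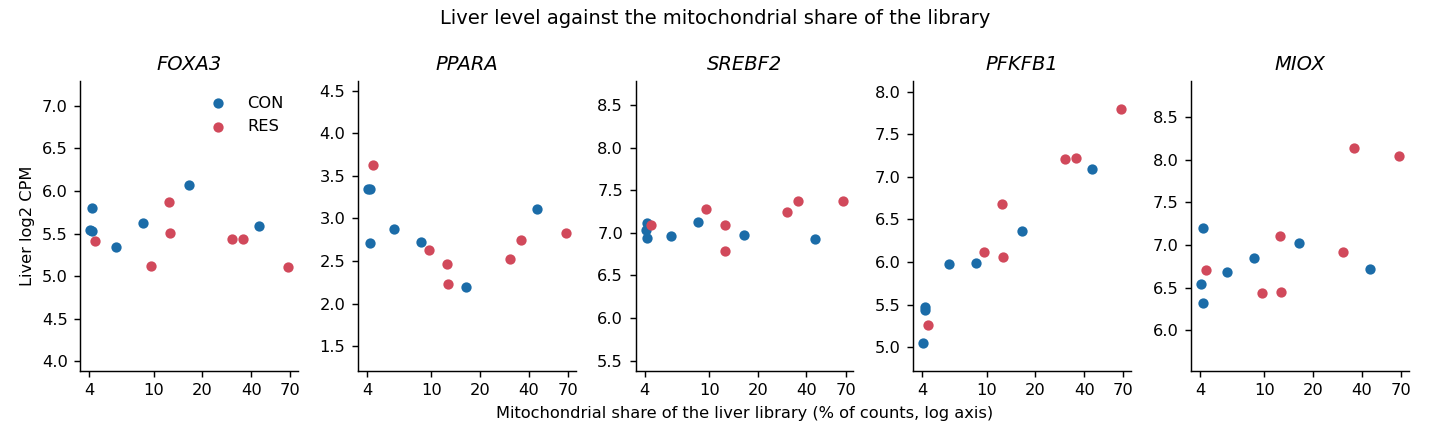
Liver log2 CPM of each member against the percentage of the library's counts in 12 mitochondrial genes (log axis), 1 point for each of the 14 fetuses, blue for CON and red for RES; all panels span the same height. *PFKFB1* climbs along the whole range of the share in both diets (*r* = 0.97), *MIOX* stands high in 2 libraries, and the other 3 show no such line.

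With log2 of the share added to the edgeR fit as a covariate, the diet difference of *PFKFB1* was 0.13 ± 0.14 (SE; adjusted *p* = 0.925) and that of *MIOX* 0.20 ± 0.26 (adjusted *p* = 0.933). That of *SREBF2* was 0.20 ± 0.11 (adjusted *p* = 0.882), that of *FOXA3* -0.18 ± 0.15 (adjusted *p* = 0.916) and that of *PPARA* -0.086 ± 0.26 (adjusted *p* = 0.977). The number of liver genes with an unadjusted *p* under 0.05 was 747 with the covariate, against 3260 without it. This fit was added after the values had been seen.

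No list of cell type markers passed the test of a diet difference in the liver, which had no sex term. The mean log2 CPM of 6 erythroid markers was 9.47 ± 0.21 in CON and 9.69 ± 0.19 in RES (SD, *n* = 7 each; exact permutation *p* = 0.0629, adjusted *p* = 0.252 over 8 measures), and that of 3 endothelial markers was 5.44 ± 0.27 in CON and 5.13 ± 0.29 in RES (exact permutation *p* = 0.0594, adjusted *p* = 0.252). The 7 hepatocyte markers averaged 13.2 ± 0.43 in CON and 13.1 ± 0.32 in RES (exact permutation *p* = 0.759, *n* = 7 each). The 4 white blood cell, 2 connective tissue and 2 bile duct markers had exact permutation *p* values of 0.531, 0.925 and 0.804. Of the bile duct markers, *SOX9* was near 0 in the liver (median 0.367 CPM, 2 libraries at 0). The bile duct test therefore says little about bile duct cells. The erythroid mean had an *r* of 0.76 with log2 of the mitochondrial share, and the part of blood-forming cells in the member levels was not tested.

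In the other tissues only *PPARA* and *SREBF2* passed the filter on low counts. In the cerebrum *PPARA* had 4 to 15 reads a library. It ran from 0.619 to 3.17 CPM in CON (median 1.51) and from 0.707 to 2.50 CPM in RES (median 1.68), with a log2 difference of 0.06 ± 0.43 (SE; 95% interval -0.84 to 0.96; adjusted *p* = 0.999, edgeR) and an interval that runs from 0.557-fold to 1.95-fold. *SREBF2* in the cerebrum ran from 208 to 469 CPM in CON (median 224) and from 213 to 312 CPM in RES (median 265), with a difference of -0.12 ± 0.22 (adjusted *p* = 0.999). In muscle *PPARA* ran from 4.83 to 8.65 CPM in CON (median 5.91) and from 3.93 to 7.20 CPM in RES (median 4.89), a difference of -0.25 ± 0.18 (adjusted *p* = 0.623). *SREBF2* in muscle ran from 211 to 305 CPM in CON (median 234) and from 239 to 324 CPM in RES (median 260), a difference of 0.13 ± 0.09 (adjusted *p* = 0.626). The highest *SREBF2* of each muscle group was in the libraries with high neuron markers, CON fetus 73 with 305 CPM and RES fetus 1 with 324 CPM. Without both, the difference was 0.13 ± 0.07 for *SREBF2* (adjusted *p* = 0.765, edgeR) and -0.27 ± 0.19 for *PPARA* (adjusted *p* = 0.803). The groups overlapped in each case. Across all genes, edgeR called 0% in the cerebrum and 0% in muscle at an adjusted *p* of 0.05, and 2.55% and 9.9% at an unadjusted *p* of 0.05, and DESeq2 called 0 and 14 genes after adjustment.

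**Figure D4:**
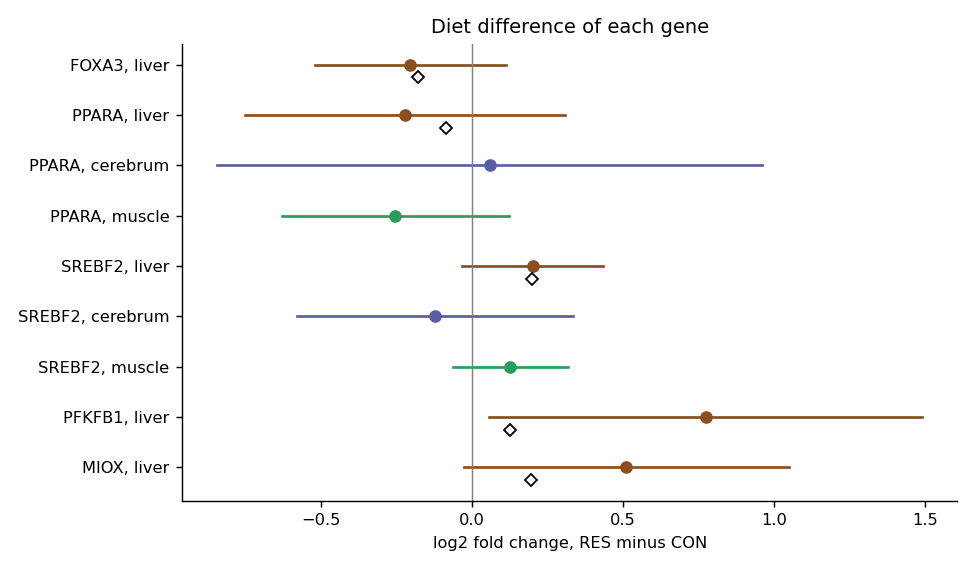
Diet difference of each member as log2 fold change, RES minus CON, in each tissue where it passed the filter; circles are edgeR estimates with 95% intervals, and open diamonds are the liver estimates with log2 of the mitochondrial share as a covariate. Only the interval of *PFKFB1* leaves 0 out, and its diamond lies at 0.13.

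Whether the diet difference itself varied between tissues could be tested for 2 members, and neither passed. For *PPARA* the difference in the liver minus that in the cerebrum was -0.27 ± 0.41 (SE, log2; adjusted *p* = 0.838, edgeR interaction term), and minus that in muscle 0.05 ± 0.37 (adjusted *p* = 1). For *SREBF2* these were 0.30 ± 0.20 (adjusted *p* = 0.640) and 0.06 ± 0.20 (adjusted *p* = 0.974). When single fetuses were left out, the values against the cerebrum ran from -0.59 to -0.033 for *PPARA* and from 0.16 to 0.37 for *SREBF2*. Against muscle they ran from -0.17 to 0.19 for *PPARA*, where the sign turned in 3 of 14 cases. For *SREBF2* against muscle they ran from 0.024 to 0.096. Without TMM factors *PPARA* against the cerebrum was -0.67 (adjusted *p* = 0.622), and the sign turned in the 3 other values, to -0.24 for *PPARA* against muscle and to -0.047 and -0.24 for *SREBF2* against the cerebrum and muscle (adjusted *p* = 0.914, 0.976 and 0.868). Over all genes 0% were called against either tissue after adjustment, and 8.26% and 5.83% at an unadjusted *p* of 0.05. *FOXA3*, *PFKFB1* and *MIOX* were left out here, because they had at most 9 reads in any cerebrum or muscle library.

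Between fetuses, the liver levels of 2 of the 10 pairs of members passed the test of a correlation, at values of *r* that were common among liver genes. *SREBF2* and *MIOX* had an *r* of 0.71 over 14 fetuses (permutation *p* = 0.00386, adjusted *p* = 0.0344 over 10 pairs; rho 0.56, adjusted *p* = 0.205), and *PFKFB1* and *MIOX* an *r* of 0.67 (permutation *p* = 0.00688, adjusted *p* = 0.0344; rho 0.61, adjusted *p* = 0.205). Of all pairs of the 13515 liver genes outside the mitochondrial genome, 22.2% had an absolute *r* at least as large as the first pair and 26.7% as large as the second. Leaving out single fetuses took the adjusted *p* over 0.05 in 8 of 14 cases for the first pair and in 9 of 14 for the second. Without the 2 fetuses farthest from the median of the first gene, *r* fell to 0.57 (*p* = 0.0490, permutation) and to 0.32 (*p* = 0.301, permutation). As a description within each diet, *SREBF2* and *MIOX* had an *r* of 0.55 in CON and 0.68 in RES, and *PFKFB1* and *MIOX* of 0.23 and 0.78. With the relation to the mitochondrial share removed from both genes, *r* was 0.63 for *SREBF2* and *MIOX* and 0.35 for *PFKFB1* and *MIOX*, neither past adjustment. The other 8 pairs had an *r* between -0.45 (*FOXA3* and *SREBF2*) and 0.50 (*SREBF2* and *PFKFB1*), with adjusted *p* values from 0.235 to 0.948.

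Among the 4491 other liver genes with a symbol, those whose level followed each member most closely over the 14 livers differed from member to member. For *PFKFB1* they were *TRIR* (*r* = 0.99), *ZNF444* (0.98) and *DHRS7B* (0.98). For *SREBF2* they were *FAM78A* (0.91), the cytotoxic granule gene *NKG7* (0.90) and the zinc transporter *SLC39A5* (0.90). For *MIOX* they included *POFUT2* (0.91) and the lipid droplet gene *CIDEB* (0.89). For *PPARA* they were the lymphoid transcription factor *IKZF1* (0.88), *SETDB2* (0.88) and the phosphatase *PTPN11* (0.87), and for *FOXA3* the branched-chain keto acid dehydrogenase subunit *BCKDHA* (0.87), the creatine kinase *CKB* (0.84) and *GNG2* (0.81). These are the highest of many values in libraries that share the spread in mitochondrial share, and are given with no test.

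Over all 42 libraries, which differ by tissue, the closest of 5101 genes included the chemokine *CCL16* (*r* = 0.99), *STEAP3* (0.99) and *HAAO* (0.99) for *FOXA3*, the heme synthesis enzyme *ALAD* (0.99) and the steroid dehydrogenase *HSD3B1* (0.99) for *PFKFB1*, and the complement component *C3* (0.99), *KIF12* (0.99) and *ALAD* (0.99) for *MIOX*. *PPARA* was closest to the transcription factor *GATA6* (0.94), *DHTKD1* (0.93) and *DOCK8* (0.93). *SREBF2* had no neighbour above *RAB11B* (0.83), followed by *VAC14* (0.80) and *GTPBP1* (0.79).

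The genes around the members were read from 7 pathway lists. A symbol was paired with counts for 51 of their genes, and 50 were tested in the liver. The study's tables hold genes it selected on these samples, so that the lists are covered in part and their direction is not independent evidence. No listed gene passed an adjusted *p* of 0.05, and the counts below are at an unadjusted *p* of 0.05, which 13.5% of all liver genes reached with higher and 10.6% with lower levels in RES. The median log2 difference of all liver genes was -0.03. Of the 24 listed genes under this limit, 19 (79.2%) had an absolute *r* of 0.8 or more with the mitochondrial share, as did 68.1% of the 3260 liver genes under it. All 24 had an *r* of the same sign as their diet difference, as did 99.8% of the 3260. Without regard to the limit, 29 of the 50 listed genes (58.0%) and 37.3% of all 13527 liver genes had such an *r*.

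Around *SREBF2*, the regulators that process it and its targets were covered by few genes. *SREBF1*, the sister factor that acts mainly on fatty acid synthesis, was at 0.44 ± 0.19 (log2, SE; adjusted *p* = 0.193, edgeR), and *INSIG2*, which retains both factors, at -0.97 ± 0.34 (adjusted *p* = 0.184). Of 8 genes of cholesterol synthesis and uptake, 0 were higher and 3 lower under the limit, with a median of -0.17. Among them were the sterol desaturase *SC5D* (-0.67 ± 0.30) and *NSDHL* (-0.30 ± 0.13), with adjusted *p* values of 0.199 and 0.188. *TM7SF2* (0.57 ± 0.27) and *FDPS* (0.52 ± 0.29) had positive values that missed the limit, so the list did not point one way. The list genes with the highest mean liver CPM, a scale that does not account for gene length, were *FDPS* and the squalene epoxidase *SQLE*, the latter at a difference of -0.045 ± 0.12. In muscle all 8 had positive differences, 2 of them under the limit, with a median of 0.11, where 48.1% of all muscle genes had positive differences and 9.9% were under the limit in either direction; the difference between tissues was not tested for these genes.

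Around *PPARA*, 2 of 4 tested partners were higher in RES under the limit and 0 lower, with a median of 0.31. *RXRA*, the retinoid X receptor that pairs with *PPARA*, was at 0.84 ± 0.30 (adjusted *p* = 0.184, edgeR) and the corepressor *NCOR1* at 0.47 ± 0.18 (adjusted *p* = 0.184), while *PPARD* and the coactivator *PPARGC1A* were at 0.14 ± 0.27 and 0.11 ± 0.20. Of the 12 genes of fatty acid oxidation and ketogenesis, 3 were higher and 2 lower, with a median of -0.01. The peroxisomal thiolase *ACAA1* (0.46 ± 0.18), the pantetheinase *VNN1* (0.65 ± 0.29) and the very long chain dehydrogenase *ACADVL* (0.46 ± 0.20) were higher. The carnitine transferase *CPT2* (-0.46 ± 0.16) and the medium chain dehydrogenase *ACADM* (-0.93 ± 0.39) were lower. *FABP1*, the fatty acid binding protein with the highest CPM of the list, was at 0.16 ± 0.18, and *CPT1A*, the entry step of mitochondrial oxidation, was at -0.044 ± 0.15.

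Beside *FOXA3*, 5 of 12 hepatocyte transcription factors were higher and 1 lower in RES under the limit, with a median of 0.10. *MLXIPL*, the carbohydrate response factor with the highest CPM of the list, was at 1.07 ± 0.29 (adjusted *p* = 0.184, edgeR), and the pregnane X receptor *NR1I2* at 0.79 ± 0.23. The liver X receptor *NR1H3* (0.71 ± 0.33) and *GATA4* (0.35 ± 0.16) were close to the limit. *NR2F2* was at -0.27 ± 0.12, the bile acid receptor *NR1H4* at -0.30 ± 0.18, and *HNF4A*, the partner named with *FOXA3*, was at -0.44 ± 0.35.

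In glycolysis and gluconeogenesis, the pathway that *PFKFB1* acts on, 1 of 8 genes was higher and 2 were lower under the limit, with a median of 0.21. The glucose 6-phosphate transporter *SLC37A4* was at 0.66 ± 0.24 (adjusted *p* = 0.184, edgeR). The kinase *PGK1* was at -0.70 ± 0.24 and the glucose transporter *SLC2A2* at -1.47 ± 0.53 (both adjusted *p* = 0.184). The pyruvate carboxylase gene *PC*, one of the 2 genes of highest CPM, was at 0.20 ± 0.19. Around *MIOX*, 4 genes of inositol and glucuronate metabolism were covered, of which 1 was higher and 2 lower, with a median of -0.04. The inositol monophosphatase *IMPA1* was at 0.39 ± 0.17, the sorbitol dehydrogenase *SORD*, with the highest CPM of the list, at -0.61 ± 0.21, and the phosphatidylinositol synthase *CDIPT* at -0.46 ± 0.20 (adjusted *p* from 0.184 to 0.193), while the xylulose reductase *DCXR* was at 0.41 ± 0.22 and missed the limit.

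**Figure D5:**
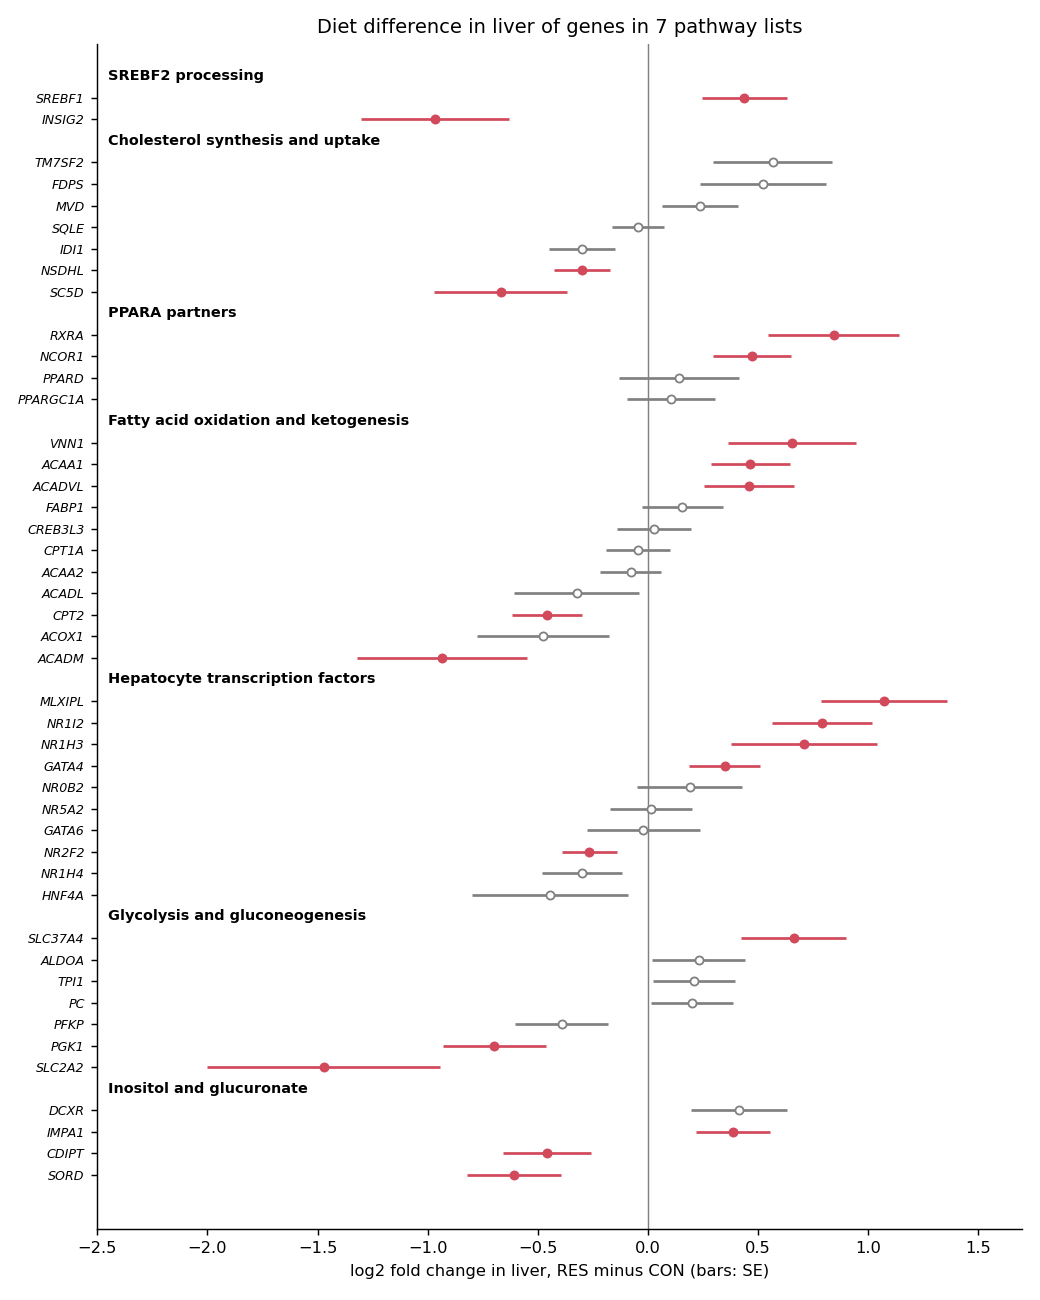
Log2 difference in the liver, RES minus CON, of 45 of the tested genes of the 7 lists, with the SE as bars; filled red points have an unadjusted *p* under 0.05, open grey points do not, and no gene passes adjustment. Positive and negative values stand side by side in 6 of the lists, and the 4 *PPARA* partners are all above 0.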

How the data were processed

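The authors aligned reads to the bovine genome ARS-UCD 1.2 with Ensembl release 100 and deposited raw gene counts from STAR 2.7.3a, after FastQC 0.11.8; which strand column was kept is not given in the sources used here. Symbols for 5128 of the 22664 genes came from the study's supplementary tables. Genes below 1 CPM in at least 80% of a comparison's libraries were left out (13527 liver, 15151 cerebrum, 14947 muscle and 15972 joint genes kept). Diet was tested in each tissue with sex as covariate, and tissue and interaction terms over 42 libraries, by edgeR 4.0.16 quasi-likelihood tests in R 4.3.3 with TMM factors, Benjamini-Hochberg adjustment over all genes and a prior count of 1 for log2 CPM; DESeq2 1.42.0 was an alternative. On simulated liver counts, the diet test recovered 99% of 100 genes changed 2 log2 units and 52% of 100 changed by 1, among 13410 genes. These rates hold for the simulated counts, and recovery in the real livers, which differ widely in mitochondrial share, was not tested. Correlations and permutation tests used Python 3.11.15 and numpy 2.4.6. Counting error alone enters intervals of pooled ratios.

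Libraries with the same number come from the same animal, per the labels. The main tissue and interaction fits took such libraries as independent, and fits with the animal as a block were an alternative. The deviations of such libraries from their group means had a median correlation of 0.093 over 42 pairs (range -0.23 to 0.33). Named genes were the 5 members, the 3 closest genes of each, and from each list those with the lowest *p* in each direction and the 2 of highest CPM; other listed genes were named after their values were seen. The members, lists and rules were chosen with earlier results of these data known. Genome coordinates and sequences were not used here. Some genes that the naming rule selects are not reported here.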

Additional observations from a re-analysis of the deposited data

Results flagged for a closer look

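With 34 groups of 7 libraries examined and about 1 in 20 passing by chance, 5 had 1 library set apart by more than 0.568 of the group's range. *PPARA* in the liver was 3.63 log2 CPM in RES fetus 70, against 2.23 to 2.83 in the other 6 RES fetuses. The other 4 were all CON fetus 2. Its liver library had a mitochondrial share of 44.9%, against 4.04% to 16.4% in the other CON livers, and a total count of 11515157, against 6658218 to 8577318. Its mean log2 CPM was 12.3 for the hepatocyte markers, against 13.1 to 13.6, and 3.31 for the white blood cell markers, against 3.82 to 4.10. The rule was applied to the raw percentage of the share, which is used as log2 in the correlations. The total count moved with log2 of the share (*r* = 0.94), so their flags are not independent.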

How the results depend on the processing

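DESeq2 called 78 genes in the liver and 14 in muscle after adjustment, where edgeR called 0. For *SREBF2*, liver minus muscle, the adjusted *p* fell to 0.0457 with the replicate block by animal (0.22), to 0.0346 with DESeq2 size factors (0.24) and to 0.0265 without the muscle libraries of CON fetus 73 and RES fetus 1 (0.26); the block changed no other call. Settings chosen after seeing the data were the fit without TMM factors, the fits without these 2 muscle libraries, the pooled ratios without 1 cerebrum library, the hepatocyte sum without *TTR* and those that use the mitochondrial share. Without TMM factors, *SREBF2* turned to -1.003 against the cerebrum and -0.84 against muscle, *PPARA* against muscle was 0.37, the diet by tissue difference turned to -0.047 for *SREBF2* against the cerebrum and to -0.24 for both *PPARA* and *SREBF2* against muscle, and 1 gene was called in the interaction with the cerebrum. The pooled ratios to the cerebrum were then 506 (*FOXA3*), 767 (*PFKFB1*) and 927 (*MIOX*), and those to muscle 78.8, 289 and 206. The pooled ratio of *MIOX* to the cerebrum moved to 4559 without the cerebrum library of RES fetus 1. Without the 4 livers over 30% mitochondrial share the diet difference of *MIOX* turned to -0.045.

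Among the correlations, *SREBF2* with *MIOX* missed adjustment with the diet means removed (0.66), the mitochondrial relation removed (0.63) or 2 fetuses left out (0.57), as did *PFKFB1* with *MIOX* (0.62, 0.35 and 0.32). *FOXA3* with *SREBF2* passed with the sex means removed (-0.64). Weak values turned sign under the same settings: *FOXA3* with *MIOX* to 0.088, 0.064 and 0.24, *PPARA* with *SREBF2* to 0.11, 0.17 and 0.13, and also to 0.046 with the sex means removed and 0.00236 without mitochondrial genes, and *PPARA* with *MIOX* to 0.042 with the mitochondrial relation removed. In males the bile duct marker difference was -0.058.

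Leaving out each fetus in turn, the diet difference in the liver stayed between 0.56 and 1.04 for *PFKFB1*, 0.31 and 0.67 for *MIOX*, 0.16 and 0.25 for *SREBF2*, -0.38 and -0.14 for *PPARA* and -0.31 and -0.14 for *FOXA3*. It ran from -0.098 to 0.34 for *PPARA* and from -0.23 to 0.017 for *SREBF2* in the cerebrum, and from -0.33 to -0.16 and from 0.073 to 0.18 in muscle. The diet by tissue difference of *PPARA* against muscle ran from -0.17 to 0.19 and against the cerebrum from -0.59 to -0.033, with 0 to 1 genes called against the cerebrum, and the liver minus muscle difference of *SREBF2* from 0.20 to 0.24, with an adjusted *p* of 0.0401 without CON fetus 54 and 0.0384 without RES fetus 1. The *r* ran from 0.60 to 0.85 for *SREBF2* with *MIOX*, from 0.52 to 0.74 for *PFKFB1* with *MIOX*, from -0.29 to 0.035 for *FOXA3* with *PFKFB1*, from -0.22 to 0.26 for *FOXA3* with *MIOX* and from -0.27 to 0.085 for *PPARA* with *SREBF2*. With the mitochondrial share it ran from 0.96 to 0.98 for *PFKFB1*, from 0.46 to 0.73 for *MIOX* and from -0.32 to 0.046 for *FOXA3*. The difference in mitochondrial share ran from 4.94 to 17.5 percentage points. Marker differences ran from -0.22 to 0.00795 for hepatocyte, -0.14 to 0.049 for connective tissue and -0.14 to 0.24 for bile duct markers. The liver genes with an unadjusted *p* under 0.05 numbered 3260, 1348 without the sex term and 922 without the 4 livers of high mitochondrial share; they fell to 1992 without CON fetus 46, 1998 without CON 69, 1908 without RES 1, 1791 without RES 6 and 2166 without RES 33. In the cerebrum 387 became 740 with no filter, 108 without RES fetus 1, 242 without CON 73 and 635 without RES 6, and in muscle 1480 became 919 without RES 6 and 967 without the 2 muscle libraries of high neuron markers. The causes were not tested.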
